A study of Mus musculus with 9 samples.

Results

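The calcium pumps and sodium calcium exchangers of the mouse hippocampus were described from 18 array probes of 9 genes, out of 39429 probes with 31093 gene names on the array. A probe was included when it was not a control and its annotated gene name was Atp2a2, Atp2a3, Atp2b1, Atp2b2, Atp2b3, Atp2b4, Slc8a1, Slc8a2 or Slc8a3. The Atp2a genes had 3 probes, the Atp2b genes 9 and the Slc8 genes 6. All 18 probes were well above background on all 9 arrays, and all 18 passed the filter on dim probes.

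The study asked how the dose of IF1, the inhibitory factor of the mitochondrial ATP synthase encoded by Atpif1, affects neurons. One-colour Agilent arrays were hybridised with hippocampal RNA from 9 mice, 3 each of IF1-KO, IF1-TG and control (CRL) genotype, all C57BL/6J males aged 9 months, with 1 array per mouse. In IF1-KO mice a floxed Atpif1 allele was recombined by Cre under the promoter of Camk2a, a gene used mainly by excitatory neurons of the forebrain, so the other cells of the hippocampus kept the gene. In IF1-TG mice a tetracycline-responsive human IF1 transgene was driven by a transactivator under the Camk2a promoter. The labels name the CRL mice only as controls. The study's methods describe separate controls for the knockout and the transgenic line in its neuronal cultures, and which of these alleles the CRL mice on the arrays carried could not be settled from the labels. A bulk hippocampus was measured throughout, in which more cells of a type and more RNA per cell cannot be told apart.

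Calcium that enters a neuron through channels or leaves its stores is removed by 3 kinds of transporter. The SERCA pumps (Atp2a genes) spend ATP to move calcium into the endoplasmic reticulum, and the PMCA pumps (Atp2b genes) spend ATP to push it across the plasma membrane with high affinity and low capacity. The NCX exchangers (Slc8 genes) use the sodium gradient to move larger calcium loads out of the cell at lower affinity. In hippocampal neurons these transporters end the calcium signals of spines and presynaptic terminals, and their combined use of ATP and of the sodium gradient ties them to mitochondrial energy supply.

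Atp2b2 and Slc8a1 each had 1 probe that passed the thresholds given below and at least 1 that did not, so the sequences of the probes on which the results turn are shown first, 5′ to 3′ as deposited. For Atp2b2, the first 30 bases of the probe that differed between genotypes, and bases 9 to 38 of the one that did not, were as follows. Capitals mark an uninterrupted repeat of C and A.
A_51_P256384: gggaaccagacctttctctggcagccatgc
A_55_P1971938: ctcttccatACACACACACACctacacagg

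The Atp2b2 probes lay on the minus strand at chr6:113698347-113698406 and chr6:113695839-113695898 (mm9), and began at bases 4349 and 6857 of the same annotated transcript. Their distance was 2508 bases both in the genome and in the transcript. The repeat of 12 bases or longer was found in 55 of the 39429 probes (0.139%).

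For the exchangers, a probe of Slc8a1 and one of Slc8a3 are shown because their sequences align in part, and a second Slc8a1 probe (first 30 bases) because it was the exchanger probe that passed the thresholds used below. Bases identical between the first and the second sequence in their alignment are in capitals.
A_55_P2080758: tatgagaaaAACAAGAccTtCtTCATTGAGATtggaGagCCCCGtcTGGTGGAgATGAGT
A_55_P2160528: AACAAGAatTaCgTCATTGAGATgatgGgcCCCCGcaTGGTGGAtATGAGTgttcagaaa
A_55_P2292435: acttaaactgctgatggaatccagcttcaa

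The Slc8a1 and Slc8a3 probes shared 38 of 51 aligned bases (74.5%) but no run of 20 bases. The Slc8a1 probe A_55_P2080758 lay at chr17:81844837-81844896 and A_55_P2292435 at chr17:81787868-81787927, 56969 bases away on the same minus strand. The second Slc8a3 probe, A_55_P1982747 at chr12:82299156-82299215, ended in 30 bases of CA repeat.
A_55_P1982747: CACACACACACACACACACACACACACACA

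Such a run of 30 bases was held by 5 of the 39429 probes (0.0127%), and this probe shared a stretch of 20 bases with 76 other probes on the array. Its signal is therefore uncertain as a measure of Slc8a3. The other 17 member probes shared no run of that length with any other probe. The GC content of the 18 probes ranged from 35.0% to 55.0%, with a median of 45.0% against 41.7% over all probes.

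Levels below are log2 signals after subtraction of each array's 75th percentile, so a level of 0 equals that percentile, and differences are log2 differences from a linear model over all 9 arrays (limma). A probe was called when its fold change was at least 1.5 and its unadjusted P below 0.05, the thresholds of the study's methods; an exact permutation test of 3 arrays against 3 could not go below 0.1, so no such test is given for single comparisons. Adjusted P values are Benjamini-Hochberg values over all tested probes. The 3 IF1-KO arrays had 71.0% to 72.9% of probes well above background, the CRL arrays 72.2% to 74.9% and the IF1-TG arrays 66.7% to 69.5%. The array labelled IF1-KO replicate 1 went against its label. Its Atpif1 level was 6.44, against 5.20 and 5.53 on the other IF1-KO arrays and 6.19 to 6.52 on the CRL and IF1-TG arrays. The arrays came from 3 slides, each with its own scan time. Slide 1 held only IF1-TG replicates 1 and 2, for which the slide and the genotype cannot be told apart. Slide 2 held 1 IF1-TG array (replicate 3) beside CRL replicates 1 and 2 and the array labelled IF1-KO replicate 1, and slide 3 held the remaining 3 arrays. As bulk hippocampus should, all 9 arrays showed excitatory neuron markers well above the 75th percentile, with a mean level of 5 genes between 2.94 and 3.19.

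Between IF1-TG and IF1-KO mice, 13 of the 18 probes had the higher mean in IF1-TG and 5 the lower, where 52.3% of all tested probes had the higher mean, and 2 were called, both higher in IF1-TG. The called probes were 1 of the 2 for Atp2b2 and 1 of the 3 for Slc8a1, beside 1.8% of all 27993 tested probes called higher in this comparison and 3.8% called in either direction. None of the 18 passed after Benjamini-Hochberg adjustment over all probes (smallest adjusted P = 0.661). The unadjusted P was below 0.05 for 3 probes, all higher, against 3.94% of all probes. The median difference of the 18 probes was 0.21, against 0.012 over all tested probes, and 0.13 both without IF1-TG replicate 3 and with normexp, another background correction, followed by quantile normalization. With only the brightest probe of each gene, 8 of 9 genes had the higher mean in IF1-TG mice and none was called. That count takes the CA repeat probe for Slc8a3, whose other probe differed by -0.01, and a probe of Atp2b1 (A_66_P138001) whose difference was -0.057 without IF1-KO replicate 2. Without IF1-KO replicate 3 the brightest probes of Atp2b2 and Atp2b4 differed by -0.032 and -0.041. With normexp and quantile normalization that of Atp2b2 differed by -0.12.

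Against CRL mice, 14 probes had a higher and 4 a lower mean in the IF1-TG group, beside 50.1% of all probes with a higher one. The same 2 probes were called higher, beside 2.24% of all probes called higher and 4.47% called in either direction, and 4 probes reached an unadjusted P below 0.05, all higher, against 4.54% of all. The smallest adjusted P was 0.486. The median difference was 0.19, against 0.00067 over all probes. With only the brightest probe of each gene, 7 of 9 genes had the higher mean in IF1-TG than in CRL mice and none was called. Between IF1-KO and CRL mice, 8 probes had a higher mean in IF1-KO and 10 a lower one, beside 47% of all probes with a higher one, and none was called, beside 1.07% of all probes called in either direction. In limma none of the 18 reached an unadjusted P of 0.05 there, which 2.56% of all probes did, and the median difference was -0.063. With only the other 2 IF1-KO arrays that median was 0.037, and still no member probe was called. The IF1-TG arrays enter both of the first comparisons, so their counts are not independent.

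**Figure D1:**
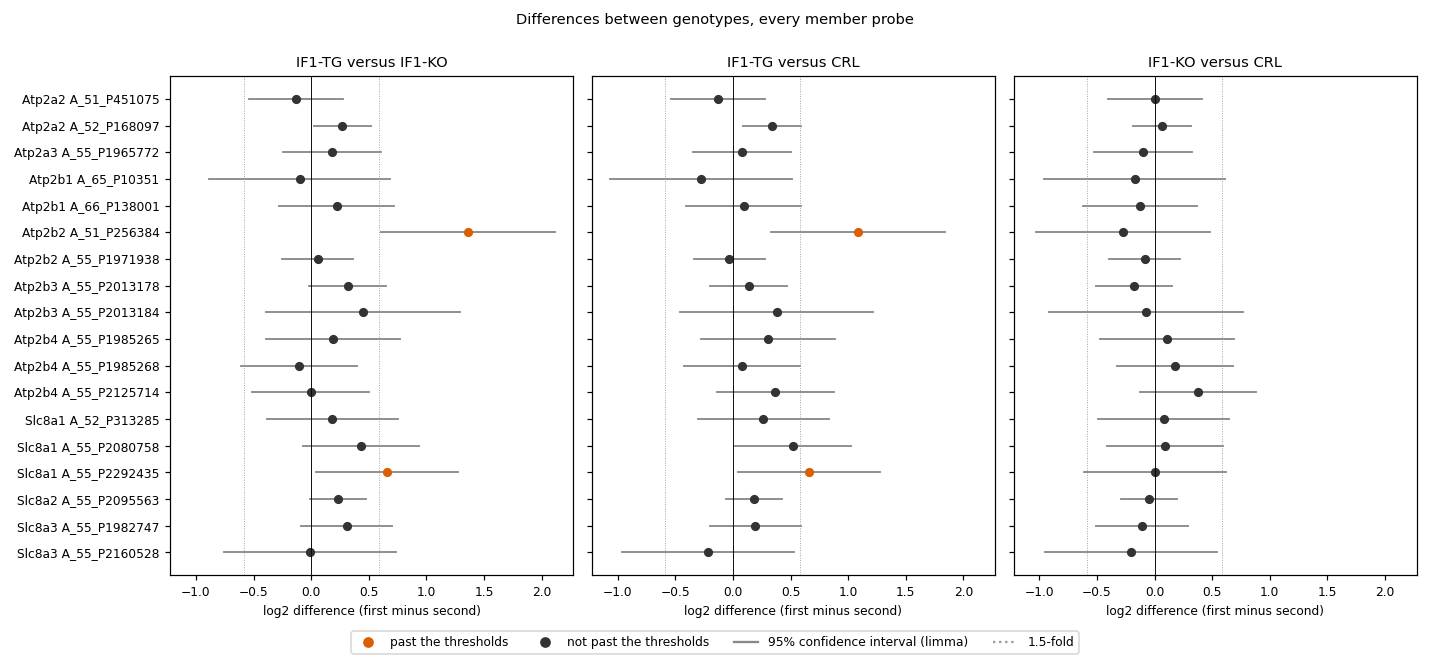
Log2 difference of each of the 18 probes (horizontal axis) with its 95% confidence interval from limma, in the comparisons IF1-TG versus IF1-KO, IF1-TG versus CRL and IF1-KO versus CRL; dotted lines mark a 1.5-fold change and orange points passed the thresholds. In the first panel 13 of 18 points lie to the right of 0, and 1 Atp2b2 and 1 Slc8a1 probe are called in the first and second panels and none in the third.

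Of the SERCA pumps, Atp2a2 encodes the widely expressed SERCA2 and Atp2a3 encodes SERCA3. The Atp2a2 probe A_52_P168097 read -2.14, -2.08 and -2.26 in IF1-KO, -2.24, -2.10 and -2.34 in CRL and -1.90, -1.87 and -1.89 in IF1-TG mice. All 3 IF1-TG arrays lay above all others, and they differed from each other less than the arrays of the other genotypes did. The difference was 0.27 ± 0.11 (SE) between IF1-TG and IF1-KO (adjusted P = 0.685), and 0.34 ± 0.11 between IF1-TG and CRL (adjusted P = 0.508). The unadjusted P was below 0.05 in both, but both were under 1.5-fold, and the probe was not called. With normexp followed by quantile normalization the differences were 0.11 ± 0.12 and 0.21 ± 0.12, and with slide as a fixed block 0.20 ± 0.17 and 0.30 ± 0.16, and the unadjusted P was then above 0.05 in both comparisons. Against IF1-KO it was also above 0.05 with array median scaling, with no filter on dim probes, with trend and robust moderation, and when any IF1-TG array or IF1-KO replicate 1 or 3 was left out.

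The other Atp2a2 probe, A_51_P451075, which lies 1506 bases downstream in the same transcript, read 2.94 to 3.14 in IF1-KO, 2.94 to 3.20 in CRL and 2.76, 3.34 and 2.74 in IF1-TG mice. The genotypes overlapped there, with IF1-TG minus IF1-KO at -0.13 ± 0.18. The single Atp2a3 probe ranged from -2.84 to -2.20 over the 9 arrays with all genotypes overlapping, and the difference between IF1-TG and IF1-KO was 0.18 ± 0.19.

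The plasma membrane pump PMCA2, encoded by Atp2b2, is the fastest of the PMCA isoforms and is enriched in neurons and in sensory hair cells. The probe A_51_P256384 read 3.46, 2.43 and 3.27 in IF1-KO, 3.46, 3.80 and 2.72 in CRL and 4.63, 4.30 and 4.31 in IF1-TG mice. The 3 IF1-TG arrays were the highest of the 9, and IF1-KO and CRL arrays overlapped. IF1-TG exceeded IF1-KO by 2.57-fold, a log2 difference of 1.36 ± 0.33 (adjusted P = 0.661). Against CRL mice it was 2.12-fold higher, a log2 difference of 1.09 ± 0.33 (adjusted P = 0.486). The difference between IF1-KO and CRL was -0.27 ± 0.33. Arrays that do not overlap were found for 4 of the 18 probes with IF1-TG above IF1-KO and for 5 with IF1-TG above CRL, against 8.54% and 6.84% of all probes.

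The other Atp2b2 probe, A_55_P1971938, which contains the CA repeat shown above, read 4.70, 4.70 and 4.43 in IF1-KO, 4.57, 4.89 and 4.63 in CRL and 4.74, 4.71 and 4.55 in IF1-TG mice. The 3 genotypes overlapped. IF1-TG minus IF1-KO was 0.056 here, with a 95% confidence interval from -0.25 to 0.36, which does not reach 1.5-fold (0.585 on the log2 scale).

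The disagreement was described further by the difference of the probes within each array. For A_51_P256384 minus A_55_P1971938 it was -1.24, -2.27 and -1.16 in IF1-KO, -1.11, -1.08 and -1.91 in CRL and -0.11, -0.41 and -0.24 in IF1-TG mice, so all 3 IF1-TG arrays lay above the other 6. No test is given for the pairs of Atp2b2 and Slc8a1, since their disagreement on these same arrays was already known. For the 6 pairs of the other 5 genes with more than 1 probe, an exact permutation test of the 3 genotypes over all 280 splits of the 9 arrays gave P from 0.146 to 0.796, where 0.00357 is the smallest P this design allows. Of the 3 IF1-TG arrays, 2 were alone on slide 1. Which probe follows the total Atp2b2 transcript was not tested.

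**Figure D2:**
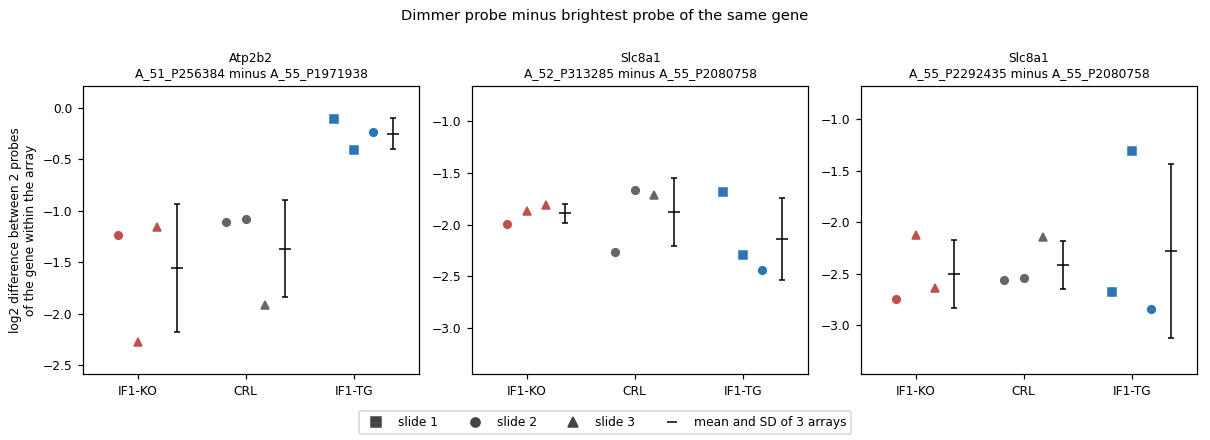
Log2 difference between a dimmer probe and the brightest probe of the same gene within each array (vertical axis), for Atp2b2 and both pairs of Slc8a1, by genotype; symbols give the slide of the array, and black marks give the mean and SD of 3 arrays. For Atp2b2 the IF1-TG arrays lie between -0.41 and -0.11, above the other 6, while for both Slc8a1 pairs the genotypes overlap.

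The rise of A_51_P256384 was smaller within slide 2, the slide that held all 3 genotypes, where IF1-TG replicate 3 exceeded the array labelled IF1-KO replicate 1 by 0.85 and the mean of the 2 CRL arrays by 0.68. With slide as a block in the model the differences were 0.75 ± 0.39 (adjusted P = 0.82) and 0.73 ± 0.36 (adjusted P = 0.52), both in the same direction and no longer called. With slide as a random effect it was called in both comparisons. The difference from IF1-KO was 1.56 with the array labelled IF1-KO replicate 1 omitted, and leaving out each of the 9 arrays in turn gave 1.05 to 1.56, called each time. Atp2b2 was among the genes that the study itself displayed from these arrays, so the call is not independent evidence of its direction.

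Some of the other lists of cell type markers varied between arrays beside Atp2b2. The mean level of 5 dentate granule markers was -1.31, -2.36 and -1.34 in IF1-KO, -1.10, -1.27 and -1.15 in CRL and -1.55, -1.61 and -1.60 in IF1-TG mice, so all 3 IF1-TG arrays lay below all CRL arrays. Between IF1-TG and CRL 4 of these 5 markers had the lower mean, with a median difference of -0.48. Between IF1-KO and CRL all 5 had the lower mean, also with a median of -0.48, and between IF1-TG and IF1-KO 4 had the higher mean, with a median of 0.097. None was called or reached an unadjusted limma P of 0.05 in any of these comparisons. IF1-KO replicate 2, the array with the lowest A_51_P256384 level, had the lowest mean of these markers and of 4 CA3 markers, 2.94 against 3.21 to 3.57. It was also the lowest array for oligodendrocyte (2.11), astrocyte (1.61), CA2 (1.57), thalamic (-1.60) and choroid plexus (-2.41) markers. For excitatory neuron, CA1, interneuron, microglia, endothelial and striatal markers it was not the lowest. CRL replicate 3, with the second lowest A_51_P256384 level, had the highest mean of 6 striatal markers, -0.38 against -1.75 to -1.33. Of the striatal markers Adora2a, an adenosine receptor gene named here after its values were seen, was called lower in IF1-TG (-0.96 ± 0.41, adjusted P = 0.584) and in IF1-KO (-1.16 ± 0.41, adjusted P = 1) than in CRL mice. Its CRL levels were -3.33, -3.61 and -1.87, and without CRL replicate 3 the differences were -0.43, no longer called, and -0.63, still called. Between IF1-TG and CRL its call was lost under 11 of 19 alternatives, with differences from -1.29 to -0.31 over all of them, and between IF1-KO and CRL under 1 of 19. The part of these markers in the Atp2b2 result was not tested. The Atp2b2 difference was 1.05 against IF1-KO without IF1-KO replicate 2 and 0.78 against CRL without CRL replicate 3, and was called in both.

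Atp2b1 encodes PMCA1, the housekeeping isoform found in most cells. Its probe A_66_P138001 read 2.83, 1.97 and 2.78 in IF1-KO, 2.54, 2.75 and 2.68 in CRL and 2.72, 2.82 and 2.70 in IF1-TG mice, so only IF1-KO replicate 2 stood apart, at the low end. IF1-TG minus IF1-KO was 0.22 ± 0.22, and -0.057 without that array. The other probe, A_65_P10351, read between -0.38 and 0.22 on 8 arrays and -1.20 on IF1-TG replicate 1. Its difference was -0.10 ± 0.35, and 0.35 without IF1-TG replicate 1. Each Atp2b1 probe thus had 1 low array, and it was a different array for each.

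Atp2b3 encodes PMCA3, an isoform with a restricted distribution that includes neurons. Its probe A_55_P2013184 (chrX:70816247-70816306) read 1.78, 1.82 and 2.36 in IF1-KO, 1.79, 2.51 and 1.87 in CRL and 3.27, 1.85 and 2.19 in IF1-TG mice. One array in each genotype stood above the other 2. These 3 arrays were the ones in which choroid plexus genes were high. The mean level of 6 choroid plexus markers (Ttr, Folr1, Kl, Clic6, Kcne2 and Sostdc1) was 1.74 in IF1-KO replicate 3, 2.05 in CRL replicate 2 and 3.19 in IF1-TG replicate 1, and -2.41 to -0.93 on the remaining 6 arrays. All 6 markers had a higher mean in IF1-TG than in the IF1-KO group and none was called.

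For this Atp2b3 probe IF1-TG minus IF1-KO was 0.45 ± 0.37 (adjusted P = 0.78), and 0.035 without IF1-TG replicate 1. The part of choroid plexus RNA in it was not tested. The second Atp2b3 probe, A_55_P2013178, is annotated to another transcript 12843 bases away. It read -0.45, -0.59 and -0.39 in IF1-KO, -0.25, -0.20 and -0.44 in CRL and 0.082, -0.39 and -0.17 in IF1-TG mice. Its IF1-TG arrays lay just above the IF1-KO arrays, with a difference of 0.32 ± 0.15 (adjusted P = 0.711), and overlapped the CRL arrays. IF1-TG replicate 1 was again the highest array, and without it the difference was 0.20. Within each genotype the highest array of this probe was also the one with high choroid plexus genes. The part of choroid plexus RNA in this probe was not tested either.

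**Figure D3:**
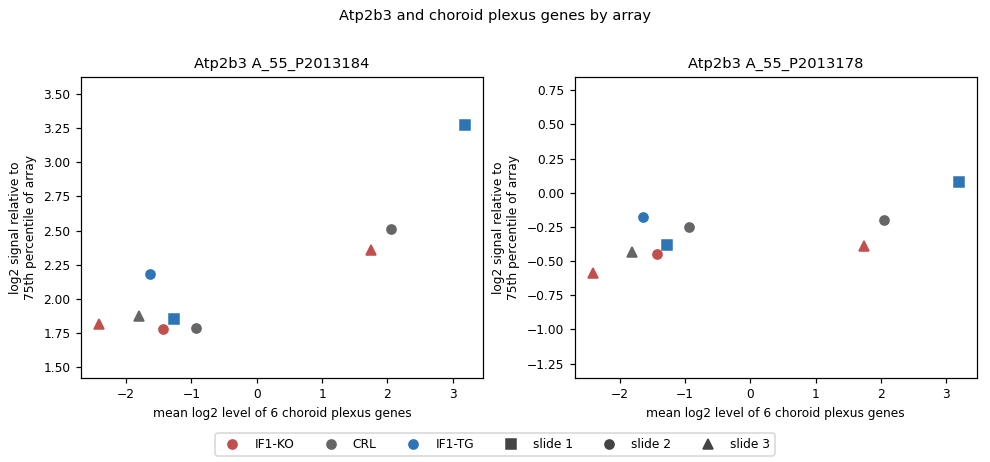
Level of each Atp2b3 probe (vertical axis, log2 signal minus the array's 75th percentile) against the mean level of 6 choroid plexus genes on the same array (horizontal axis, same scale); colours give the genotype and symbols the slide. In the left panel the 3 arrays with choroid plexus levels of 1.74, 2.05 and 3.19, 1 of each genotype, are also the 3 with the highest Atp2b3 levels. In the right panel each of these arrays is the highest of its own genotype.

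Atp2b4 encodes PMCA4, found in many tissues. Its 3 probes gave differences of 0.19 ± 0.25, -0.10 ± 0.22 and -0.0055 ± 0.22 between IF1-TG and IF1-KO, with overlapping arrays for each. Against CRL they were 0.30 ± 0.25, 0.079 ± 0.22 and 0.37 ± 0.22, also overlapping and not called. With slide as a fixed block the third of these probes, A_55_P2125714, was called higher than in CRL mice, at 0.78 ± 0.24 (adjusted P = 0.353). The order of the genotypes also differed among the probes. IF1-TG had the highest mean for A_55_P1985265, and IF1-KO for A_55_P1985268 and A_55_P2125714, by less than the standard error in each case against the next genotype. The probe A_55_P2125714 had the largest difference between IF1-KO and CRL of the 18, at 0.37 ± 0.22.

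Among the exchangers, Slc8a1 encodes NCX1, which is best known as the exchanger of heart muscle and is also expressed in brain. The probe A_55_P2292435 read -5.87, -5.32 and -5.66 in IF1-KO, -5.67, -5.59 and -5.60 in CRL and -5.50, -4.36 and -5.02 in IF1-TG mice. IF1-TG replicate 2 was the highest array, IF1-TG replicate 1 lay below IF1-KO replicate 2, and the CRL arrays lay close together. The probe was 1.58-fold higher in the IF1-TG group than in IF1-KO, a difference of 0.66 ± 0.27 (adjusted P = 0.69). Against CRL mice the difference was 0.66 ± 0.27 (adjusted P = 0.568), and that between IF1-KO and CRL was 0.0040 ± 0.27.

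This call rested on IF1-TG replicate 2, an array of slide 1. Without it the differences were 0.36 ± 0.20 against both IF1-KO and CRL, and neither was called. The probe was not called either with slide as a fixed block, at 0.73 ± 0.47 and 0.67 ± 0.43. The same array had the highest mean level of 4 thalamic markers, 0.038 against -1.60 to -1.16 on the others. Tnnt1, Prkcd and Rgs16 were each highest there, but Tcf7l2 read -3.44, below -3.01 on IF1-TG replicate 3. The part of these markers in the result was not tested. The call against IF1-KO was also lost without any 1 of IF1-KO replicates 1 or 3, the CRL arrays or IF1-TG replicate 3, and it remained when IF1-TG replicate 1 or IF1-KO replicate 2 was left out. In these 6 cases the difference was 0.53 without IF1-KO replicate 1, under 1.5-fold, and 0.63 to 0.69 in the other 5, where it stayed over 1.5-fold and the unadjusted P rose above 0.05.

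The other Slc8a1 probes did not pass the thresholds. A_55_P2080758, whose sequence matches Slc8a3 in part, read -3.13, -3.20 and -3.02 in IF1-KO, -3.11, -3.06 and -3.46 in CRL and -2.82, -3.05 and -2.18 in IF1-TG mice, with IF1-TG replicate 3 the highest. The difference was 0.43 ± 0.22 against IF1-KO (adjusted P = 0.716) and 0.52 ± 0.22 against CRL (adjusted P = 0.575), both under 1.5-fold. With slide as a block it was called, at 0.82 ± 0.21 (adjusted P = 0.593) and 0.97 ± 0.20 (adjusted P = 0.239), where the only IF1-TG array on a slide with other genotypes was replicate 3. Without IF1-TG replicate 3 the differences were 0.18 and 0.27. The third probe, A_52_P313285, 627 bases from A_55_P2080758, differed by 0.18 ± 0.25 between IF1-TG and IF1-KO with overlapping arrays.

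All 3 Slc8a1 probes had a higher mean in IF1-TG than in either other genotype, but the array that was highest was IF1-TG replicate 1, 2 or 3 according to the probe. In the within-array differences between the Slc8a1 probes the genotypes overlapped.

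**Figure D4:**
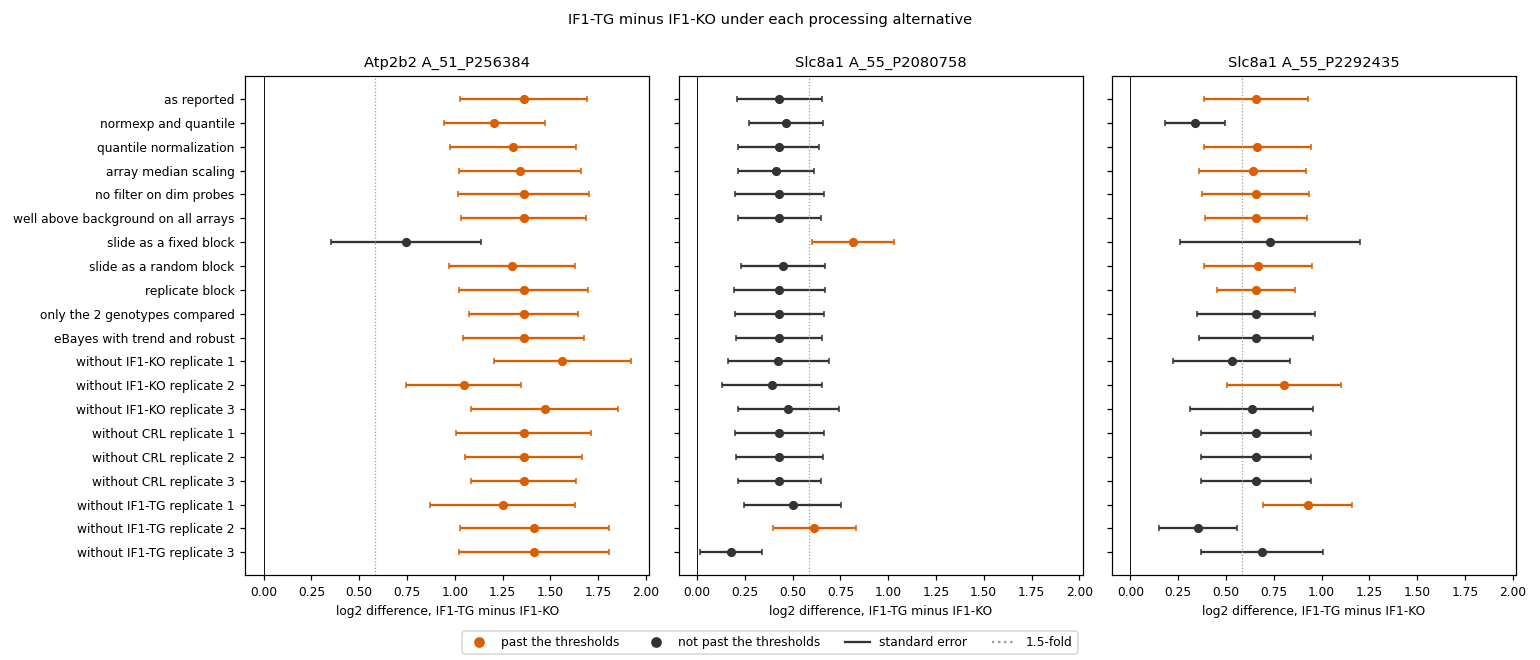
Log2 difference between IF1-TG and IF1-KO (horizontal axis, with standard error) for 1 Atp2b2 and 2 Slc8a1 probes under each way of processing the data (rows); orange points passed the thresholds and the dotted line marks 1.5-fold. The Atp2b2 probe lost its call with slide as a fixed block, at 0.75, whereas the Slc8a1 probe A_55_P2292435 lost it under 11 of 19 alternatives and A_55_P2080758 gained it with the slide block and without IF1-TG replicate 2.

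Slc8a2 encodes NCX2, an exchanger found mainly in brain. Its single probe read 4.21, 4.09 and 4.11 in IF1-KO, 4.14, 4.32 and 4.10 in CRL and 4.38, 4.37 and 4.35 in IF1-TG mice. The IF1-TG arrays lay above all others, by a small margin, with differences of 0.23 ± 0.11 against IF1-KO (adjusted P = 0.711) and 0.18 ± 0.11 against CRL (adjusted P = 0.677). The upper end of the 95% confidence interval against IF1-KO, 0.48, was below 1.5-fold.

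Slc8a3 encodes NCX3, found in brain and skeletal muscle. The probe with 30 bases of CA repeat read 3.91, 3.56 and 3.94 in IF1-KO, 3.93, 3.94 and 3.87 in CRL and 4.06, 3.83 and 4.44 in IF1-TG mice, with IF1-TG minus IF1-KO at 0.31 ± 0.17 (adjusted P = 0.723). The probe A_55_P2160528, without the repeat, ranged from -5.64 to -4.41 with all genotypes overlapping, and its difference was -0.01 ± 0.33 with a 95% confidence interval from -0.76 to 0.74. This wide interval does not exclude a 1.5-fold change either way.

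**Figure D5:**
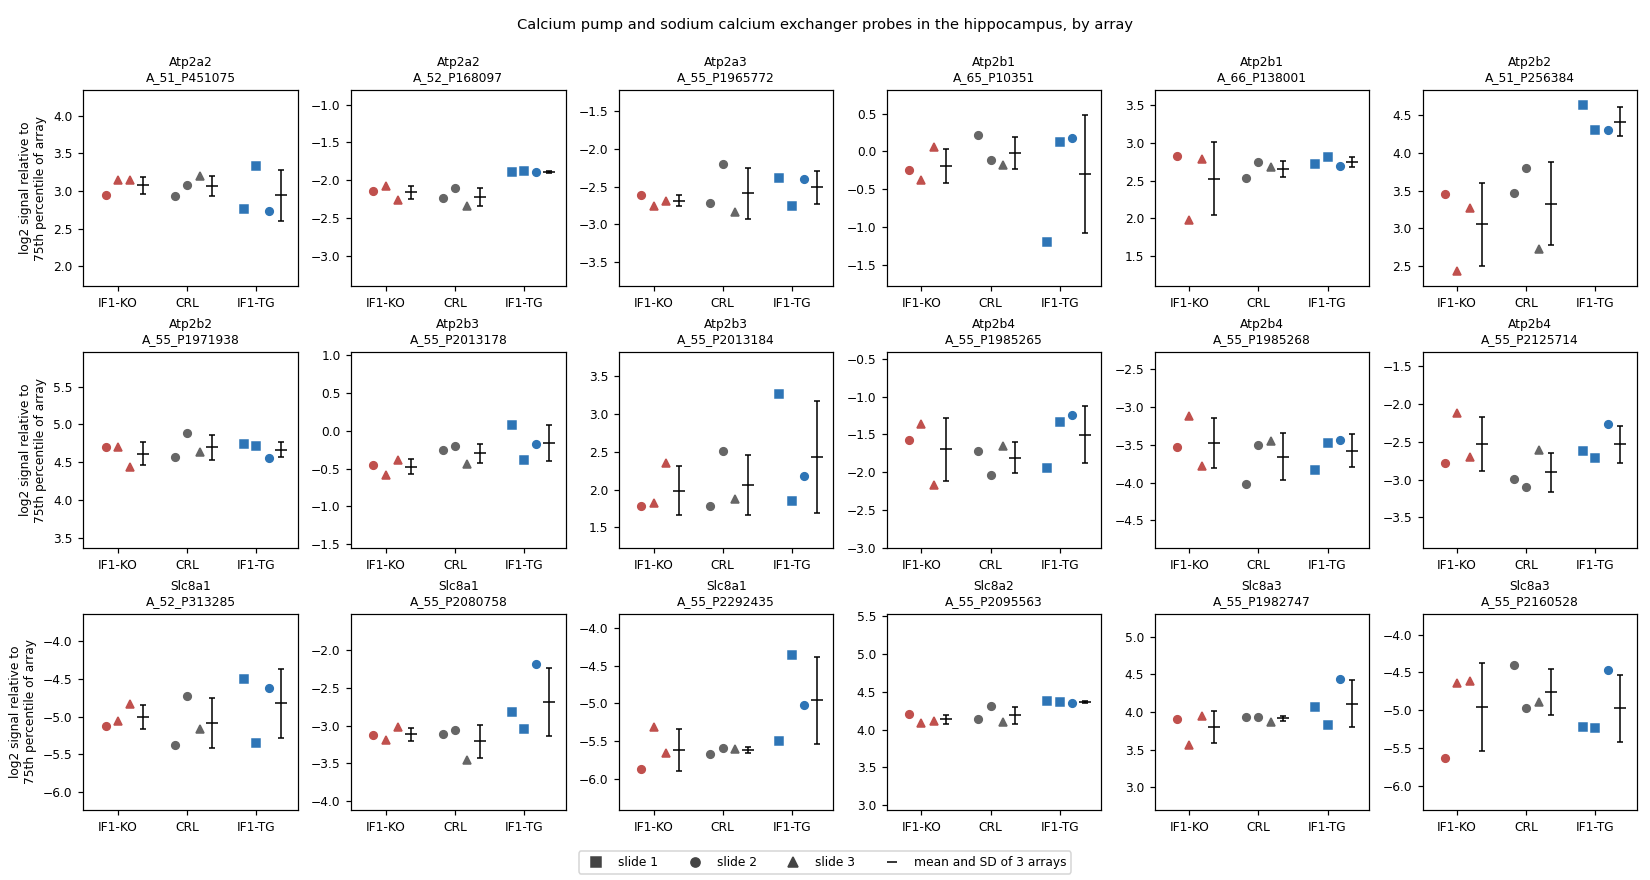
Level of every member probe on each of the 9 arrays (vertical axis, log2 signal minus the array's 75th percentile; panels are centred on their own probe) by genotype, with the slide as symbol and the mean and SD of 3 arrays in black. The IF1-TG points lie above all others for Atp2b2 A_51_P256384, Atp2a2 A_52_P168097 and Slc8a2, and the highest array of each genotype stands apart for Atp2b3 A_55_P2013184.

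The SD within a genotype ranged from 0.012 to 0.78 over the 18 probes and 3 genotypes, with a median of 0.22. Within slide 2 the median difference of the 18 probes was 0.36 between IF1-TG and IF1-KO, with 15 of 18 higher, and 0.25 between IF1-TG and CRL, with 16 of 18 higher. These rest on 1 array of IF1-TG and 1 of IF1-KO, the one whose Atpif1 level went against its label. Between IF1-KO and CRL the median was -0.053 within slide 2 and 0.060 within slide 3.

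The genes that work beside the transporters were followed in a list of 42, of which 40 were tested by their brightest probe. In IF1-TG against IF1-KO mice 24 had a higher and 16 a lower mean, with a median of 0.068 and none called; with quantile normalization or slide as a fixed block these were 20 and 20. At an unadjusted limma P below 0.05 there were 2 higher and 1 lower, where 7.15% of all probes were below it in either direction. They were Stim1, the calcium sensor of the endoplasmic reticulum (0.42 ± 0.16), Itpr2, an inositol trisphosphate receptor (0.51 ± 0.17), and Casq2, a luminal calcium buffer (-0.26 ± 0.11); these were named after their values were seen. Against CRL mice 19 had a higher and 21 a lower mean, with a median of -0.014, and the higher were 16 to 21 under the alternatives that kept all 40. In that comparison 1 gene was called, beside 4.47% of all probes called in either direction. Pln, encoding phospholamban, the inhibitor of SERCA2, differed by -1.40 ± 0.45 (adjusted P = 0.503). At an unadjusted limma P below 0.05 there were 1 higher, Stim1 (0.38 ± 0.16), and 2 lower, Casq2 (-0.27 ± 0.11) and Pln. Of all probes, 4.54% were below it and higher in IF1-TG.

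Pln read -5.78, -4.74 and -5.65 in CRL, -7.23, -5.80 and -7.36 in IF1-TG and -6.40, -5.80 and -5.71 in IF1-KO mice. It was well above background on 3 CRL, 2 IF1-KO and 1 IF1-TG array, so its low values lie near the detection limit and it passed the filter on dim probes only through the CRL arrays, where it was highest. With normexp and quantile normalization the difference was -0.20 ± 0.15 and not called, and Pln was not among the probes well above background on all 9 arrays. Between IF1-KO and CRL, 29 of the 40 genes had a lower mean in IF1-KO, where 47% of all probes had a higher one, with a median of -0.057 and none called. At an unadjusted limma P below 0.05 there was 1 gene, Hspa5, the chaperone BiP of the endoplasmic reticulum (-0.38 ± 0.13), beside 2.56% of all probes, and it was named after its value was seen. Of the 40 genes, 25 to 30 had the lower mean under the scaling and block alternatives and with CRL replicate 3 left out. By role, no member of the store release and refill group (11 genes), the buffers (9 tested), the mitochondrial and potassium-dependent exchangers (5 tested) or the secretory pathway pumps (2) was called in any of the 3 comparisons.

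The probes whose levels most resembled the called member probes were sought among 27706 tested probes measured on all 9 arrays. Of these, only probes with RefSeq gene symbols could be named. For Atp2b2 A_51_P256384 the most alike were Luc7l3 (Pearson r = 0.98), Rcbtb1 (0.97) and Klc4 (0.96). For Slc8a1 A_55_P2292435 they were Dcaf8 (0.95), Lig3 (0.94) and 2310036O22Rik (0.93). The differences between IF1-TG and IF1-KO were 0.50 ± 0.16, 0.45 ± 0.13 and 0.24 ± 0.11 for the first 3, and 0.10 ± 0.11, 0.16 ± 0.11 and 0.082 ± 0.11 for the latter 3. With 9 arrays and that many probes searched, these are descriptions of likeness only.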

How the data were processed

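Hippocampal RNA of 9 mice was hybridised to 1-colour Agilent arrays. The authors deposited spot intensity from Agilent Feature Extraction 10.7.3.1, with the background surface subtracted, spatial trends removed and surrogate values given to dim spots, and with no normalization between arrays; mean spot and local background intensity, used for an alternative, were deposited uncorrected. The other deposited columns used are marks of 0 or 1 for spots well above background, saturated or outlying. Probe annotation is on mm9.

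Each array's log2 processed intensity was centred on its 75th percentile. Controls and 1401 outlier spots were dropped and repeated spots averaged; no spot was saturated. A probe was tested if some genotype had it well above background on each of its 3 arrays, which 27993 of 39429 probes met. Replicates of a genotype correlated at 0.983 to 0.992, and the number of arrays limits the precision. Genotype and replicate came from the labels. All 9 arrays entered a genotype model in limma 3.58.1 (R 4.3.3) with Benjamini-Hochberg adjustment over all tested probes. The fold change of 1.5 and unadjusted P of 0.05 follow the study's methods. The fit was tested on simulated data. The members, gene lists and tests were chosen with earlier results of these data known. Every member probe is reported. Neighbours were named when called and markers when called between IF1-TG and IF1-KO. Stim1, Itpr2, Casq2, Hspa5, Adora2a and the choroid plexus markers were named after their values were seen. The dentate granule, CA3, striatal, thalamic and other marker lists were likewise picked for mention after their values were seen. The 3 most alike probes (1 per gene) were named for each called member. A gene list took the brightest probe per gene. Alternatives covered background correction, scaling, the filter, slide and replicate blocks, the genotypes fitted, variance moderation and leaving out each array. All 9 symbols matched RefSeq.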

Additional observations from a re-analysis of the deposited data

How the results depend on the processing

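The number of arrays limits every value. Of the called differences under the alternatives, 26 of 38 remained called between IF1-TG and IF1-KO and 26 of 38 between IF1-TG and CRL, and all 12 that were lost in each comparison kept their direction; Atp2b2 A_51_P256384 lost its call under the slide block only and Slc8a1 A_55_P2292435 in the other cases. Of uncalled differences, 2 and 4 became called, and the sign changed in 25 of 304 (8 probes) and 10 of 304 (7 probes), and in 29 of 342 (13 probes) between IF1-KO and CRL, where no member was called under any alternative. Except where an array was left out, the causes were not tested.

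The count of called members between IF1-TG and IF1-KO was 1 rather than 2 with normexp background correction and quantile normalization, with slide as a fixed block, with only the 2 genotypes compared and with trend and robust moderation, and 1 to 2 with each array left out in turn. With slide as a fixed block neither probe called without it was called. The called probes were then Slc8a1 A_55_P2080758 against IF1-KO, and that probe and Atp2b4 A_55_P2125714 against CRL. Against CRL it was 1 with normexp and quantile normalization, array median scaling, only the 2 genotypes and trend and robust moderation, and 1 to 3 with each array left out; it was 3 without IF1-TG replicate 1. Normexp and quantile normalization gave Slc8a1 A_55_P2292435 a difference of 0.34 ± 0.16. The median difference was 0.29 between IF1-TG and CRL with slide as a fixed block, and -0.11 to 0.037 between IF1-KO and CRL with each array left out (0.037 without IF1-KO replicate 1 and 0.011 without CRL replicate 2); it was 0.0098 there with normexp and quantile normalization. The number of the 6 tested probe pairs below an exact permutation P of 0.05 was 0, and 0 to 1 with each array left out, with the 1, of Atp2a2, found without IF1-TG replicate 2.

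The alternatives for the neighbouring genes and Adora2a were chosen after seeing the data. The count called between IF1-TG and IF1-KO was 1 with normexp and quantile normalization, 1 with slide as a fixed block, 2 with the replicate block and 0 to 2 with each array left out. Against CRL it was 0 with normexp and quantile normalization and 0 with only probes well above background on all 9 arrays, a filter that Pln does not pass. Between IF1-KO and CRL it was 0 to 1 with each array left out, with the 1 found without CRL replicate 3.

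Same-numbered arrays did not deviate together (r from -0.17 to 0.12, 1 of 9 above 0.1), so the numbers were not taken to pair the mice. With the replicate block 2, 2 and 0 members were called in the 3 comparisons, as without it. Over all probes, 1063 were called between IF1-TG and IF1-KO, and 563 with normexp and quantile normalization, 3207 with no filter on dim probes, and 636 to 1770 with each array left out, lowest without IF1-KO replicate 2 and highest when IF1-TG replicate 2 was dropped. Between IF1-TG and CRL these were 1252, 569, 4669 and 1073 to 1979 (highest with IF1-TG replicate 2 dropped), with 2218 under the slide block. Between IF1-KO and CRL they were 299, 163, 729 and 203 to 1130 (514 without IF1-KO replicate 1, 1130 without CRL replicate 3), with 175 when only probes well above background on all 9 arrays were kept, and the share of calls that were higher was 58.9% as reported and 82.8% with normexp and quantile normalization. That share was 47.3% between IF1-TG and IF1-KO, 77.3% with no filter and 26.1% without IF1-TG replicate 3, and 50.2%, 82.1% and 27.6% between IF1-TG and CRL, so the shares of all probes called higher depend on the filter and on that array.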
